A study of Rattus norvegicus with 13 samples.

Results

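The cluster of miR-532 and miR-501 is a group of miRNA genes on the rat X chromosome that lie inside the gene Clcn5. Its members were taken by name from the rat mature miRNAs of the count table, as every entry of miR-532, miR-188, miR-362, miR-500, miR-501 or miR-660, whatever its arm. This gave 8 of 460 rat mature miRNAs, named with the rat prefix rno- in the table: rno-miR-532-5p, rno-miR-532-3p, rno-miR-188-5p, rno-miR-362-5p, rno-miR-362-3p, rno-miR-500-3p, rno-miR-501-5p and rno-miR-501-3p. The cluster was chosen by the counts of rno-miR-532-3p and rno-miR-501-3p in these 3 groups, with and without irradiated library 4. The group differences below are therefore descriptions and carry no test of their own.

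Small RNA libraries were made from total RNA of whole kidneys of 13 female WAG/RijCmcr rats, a Wistar strain, aged 11 to 12 weeks at irradiation. Control rats (labelled 0 Gy, n = 4) were age matched and received no radiation and no drug. Irradiated rats (labelled 13 Gy leg-out PBI, n = 4) received 13 Gy of X-rays to the whole body apart from a shielded hind leg, and no drug. Irradiated plus lisinopril rats (n = 5) received the same dose and, from day 7 until the end, drinking water with lisinopril, which blocks angiotensin converting enzyme, at about 24 mg per square metre per day. All kidneys were taken at day 35, and supportive saline (days 3 to 7) and enrofloxacin (up to day 14) are described without a statement on whether control rats received them. The kidney was sampled as a bulk tissue, so fewer cells of a type and less miRNA per cell cannot be told apart.

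An miRNA is cut from a hairpin precursor, and either arm of the hairpin, named 5p or 3p, can be loaded into an Argonaute protein to repress mRNAs that pair with its seed, bases 2 to 8. miRNAs of a cluster can be cut from a shared transcript, while the amount of each mature arm also depends on processing, arm choice and decay. Clcn5, the host gene, encodes a chloride and proton exchanger of endosomes in the proximal tubule of the kidney, and its loss causes Dent disease. The mRNA of Clcn5 was not measured in these libraries.

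In the RefSeq annotation of GRCr8 the 5 hairpins stand on the plus strand of chromosome X, the strand of Clcn5, within its bounds and in the order Mir532, Mir188, Mir362, Mir501, Mir500. The mature sequences of 7 of the 8 members were matched there by name (miR-362-5p was not). They are shown 5′ to 3′ with the seed in capitals, because the seed decides which members can share targets.

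miR-532-5p: cAUGCCUUgaguguaggacugu
miR-532-3p: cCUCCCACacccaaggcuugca
miR-188-5p: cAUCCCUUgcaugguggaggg
miR-362-3p: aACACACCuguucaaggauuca
miR-501-5p: aAUCCUUUgucccuggguga
miR-501-3p: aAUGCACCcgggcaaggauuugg
miR-500-3p: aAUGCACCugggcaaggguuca

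miR-500-3p and miR-501-3p carry the same seed and differ at 4 of the 22 positions over which they can be compared, with the first 8 bases identical. The seeds of the other 5 sequences differ from this one and from each other. Among the 693 mature rat names in RefSeq, the seed of miR-362-3p is also that of miR-329-3p and the seed of miR-532-5p that of miR-511-5p. The sources used here do not give how reads that match both miR-500-3p and miR-501-3p were counted, so the split between this pair is uncertain. GC content ran from 40.9% in miR-362-3p to 63.6% in miR-532-3p, against a median of 46.7% over 376 tested miRNAs with a RefSeq sequence. The 2 hairpins from which miR-532-3p and miR-501-3p are cut are printed next with both mature arms in capitals, because arm usage differs between them.

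Mir532: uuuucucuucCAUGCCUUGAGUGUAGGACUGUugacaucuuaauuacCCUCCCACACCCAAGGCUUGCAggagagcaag
Mir501: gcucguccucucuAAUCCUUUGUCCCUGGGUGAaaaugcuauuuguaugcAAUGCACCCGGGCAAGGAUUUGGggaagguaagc

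Library totals over rat mature miRNAs ran from 1194175 counts in control library 2 to 11095939. The lowest detectable level, taken as 3 counts, was worth 3.19 CPM (read counts scaled to a common library size) in control library 2 and 0.289 to 0.561 CPM in the rest. As reads carried no molecular identifiers, this level and the intervals below account for counting error alone. Kidney markers (11 entries of 6 markers) summed to 430636 to 741625 CPM in control, 350370 to 482876 in irradiated and 446707 to 577181 in irradiated plus lisinopril kidneys. The largest part in every library was miR-10a, at 251502 to 562195 CPM, while miR-204 was at 169 to 288 CPM. The muscle markers miR-1-3p and miR-133a-3p were at 0.279 to 3.19 and 22.6 to 42.6 CPM. Leukocyte markers (7 entries) summed to 679 to 1016 CPM in control, 820 to 1263 in irradiated and 663 to 1426 in irradiated plus lisinopril kidneys. Erythroid markers (4 entries) summed to 918 to 2104 CPM in control, 790 to 4229 in irradiated and 674 to 3491 in irradiated plus lisinopril kidneys. The largest part in every library was miR-486, at 666 to 3952 CPM, while miR-451 was at 1.55 to 219 and miR-144 at 0.207 to 65.9 CPM. The part of any of these cell types in the results was not tested. Irradiated library 4 stood apart from the other irradiated libraries: without it, the number of miRNAs past the threshold between irradiated and control kidneys went from 7 to 60. Results are therefore given with and without it.

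All 8 members were of low to middling abundance. Together they made up 0.0101% to 0.0145% of rat miRNA counts in control, 0.0152% to 0.0210% in irradiated and 0.0117% to 0.0199% in irradiated plus lisinopril kidneys. The shares of control and irradiated kidneys did not overlap, but after scaling by TMM (trimmed mean of M values) the sums did, with 110 to 155 CPM for control and 148 to 191.98 CPM for irradiated kidneys. How many of all miRNAs had raw shares without overlap was not counted. With library totals alone, the median log2 fold change of all tested miRNAs between these groups was 0.26, against 0.02 with TMM. Over all 13 libraries miR-532-5p was the most abundant, at a mean of 92.5 ± 24.1 CPM (SD, n = 13), and ranked 155 of 460 rat miRNAs. It held 62.6% of the summed level of the members.

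A second tier followed, with miR-188-5p at 17.2 ± 3.54 CPM, miR-532-3p at 15.6 ± 5.43 CPM, miR-500-3p at 11.5 ± 2.25 CPM and miR-362-3p at 7.67 ± 1.99 CPM. Over the 13 libraries the range of each overlapped that of its neighbour in this order (14.1 to 25.2, 8.499 to 27.4, 8.499 to 16.7 and 4.34 to 10.6 CPM), while miR-532-5p, at 62.1 to 134 CPM, overlapped none of them. The last tier was near the detection limit, with miR-362-5p at 1.61 ± 0.316 CPM, miR-501-3p at 1.23 ± 0.497 CPM and miR-501-5p at 0.510 ± 0.351 CPM. These are read counts per mature sequence without correction for length, which differs by a few bases, or for cloning bias between sequences. Of the 8 members 7 passed the filter on low counts, and miR-501-5p did not.

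**Figure D1:**
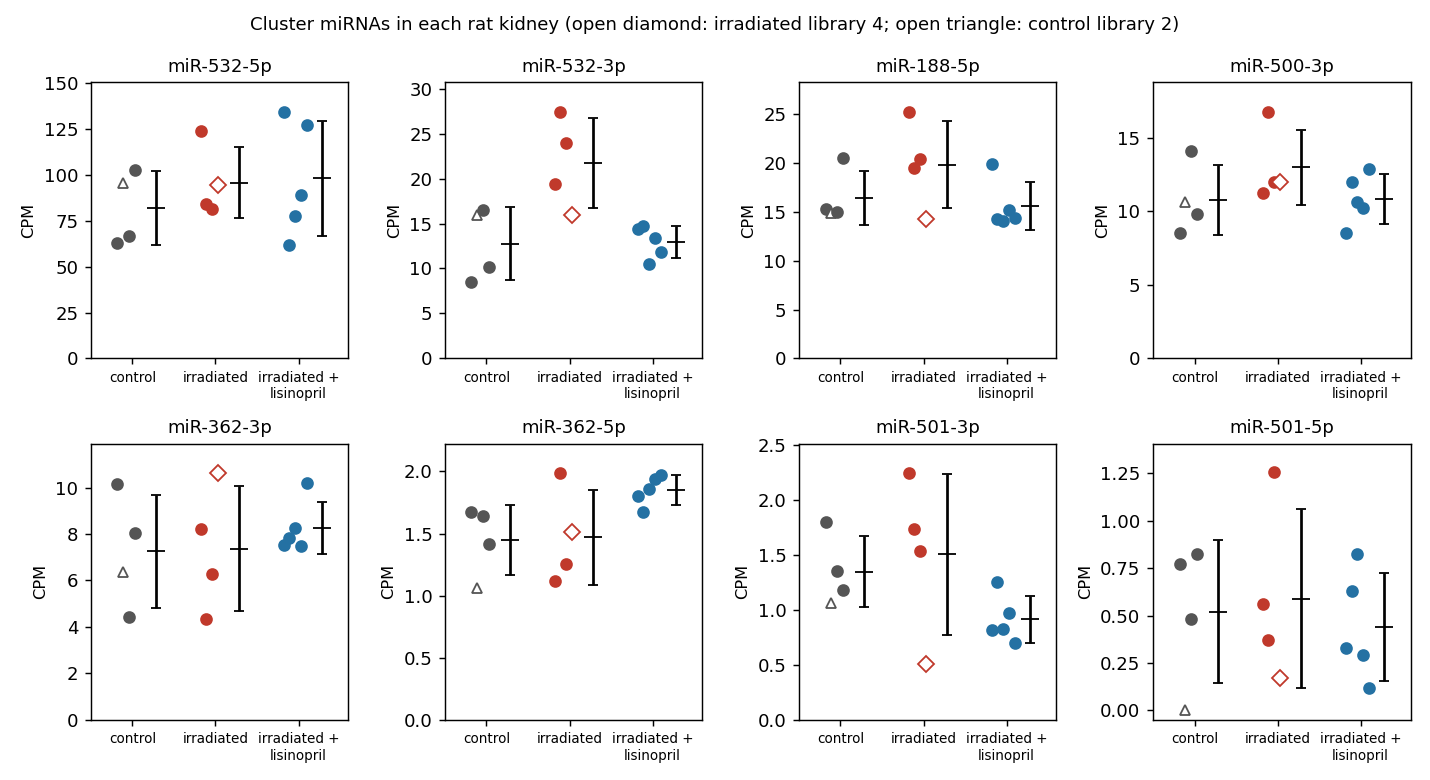
CPM of each cluster miRNA (y axis) in every rat kidney (points) by group, with the group mean ± SD beside the points; open diamonds mark irradiated library 4 and open triangles control library 2. miR-532-3p lies at 16.0 to 27.4 CPM in the 4 irradiated kidneys and at 10.5 to 14.7 CPM in the 5 irradiated plus lisinopril kidneys, whereas miR-532-5p overlaps across all 3 groups.

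miR-532-3p, the 3p arm of the first hairpin, showed the largest group difference among the members in the comparison of irradiated with control kidneys. Control libraries 1 to 4 had 8.499, 16.0, 16.5 and 10.1 CPM. Irradiated libraries 1 to 4 had 19.4, 27.4, 24.0 and 16.0 CPM. The lowest irradiated kidney, library 4, lay just below the highest control, library 3, so the groups overlapped by this pair. Group means were 12.8 ± 4.05 CPM (n = 4) and 21.7 ± 5.02 CPM (n = 4), a fitted log2 fold change of 0.81 (SE 0.237), or 1.75-fold.

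Irradiated plus lisinopril kidneys had miR-532-3p at 14.4, 14.7, 10.5, 13.4 and 11.8 CPM in libraries 1 to 5, with a mean of 13.0 ± 1.77 CPM (n = 5). All 5 were below all 4 irradiated kidneys without the drug, and all 5 lay within the control range. The log2 fold change against irradiated kidneys was -0.75 (SE 0.215), a ratio of 0.596, and against control kidneys 0.06 (SE 0.225). Both comparisons that involve irradiated kidneys use the same 4 irradiated libraries, so a high level in that group appears in each.

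Its partner on the same hairpin, miR-532-5p, did not show this pattern. It was at 63.0, 95.7, 66.6 and 103 CPM in control, 123.9, 84.0, 81.3 and 94.3 CPM in irradiated and 134, 62.1, 77.6, 89.1 and 127 CPM in irradiated plus lisinopril libraries. The 3 groups overlapped throughout, with the widest spread in the lisinopril group (98.1 ± 31.6 CPM, n = 5). Log2 fold changes were 0.23 (SE 0.249) for irradiated against control, 0.03 (SE 0.234) for lisinopril against irradiated and 0.27 (SE 0.237) for lisinopril against control.

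The share of the 5p arm among mir-532 counts expresses this difference without any library scaling. Over all libraries 85.4% of mir-532 counts were 5p, from 8809 counts of 5p and 1501 of 3p. The share was 80.2% to 91.0% in control (mean 86.3 ± 4.60, n = 4), 75.4% to 86.4% in irradiated (81.1 ± 5.64, n = 4) and 80.8% to 91.5% in irradiated plus lisinopril kidneys (87.5 ± 4.17, n = 5). Irradiated libraries 2 and 3 were the lowest of all 13, at 75.4% (95% exact binomial interval 72.4 to 78.2) and 77.2% (74.1 to 80.2), while irradiated libraries 1 and 4 lay inside the range of both other groups. Both of these intervals overlapped those of control library 3 (77.3 to 82.8) and lisinopril library 2 (77.8 to 83.6).

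**Figure D2:**
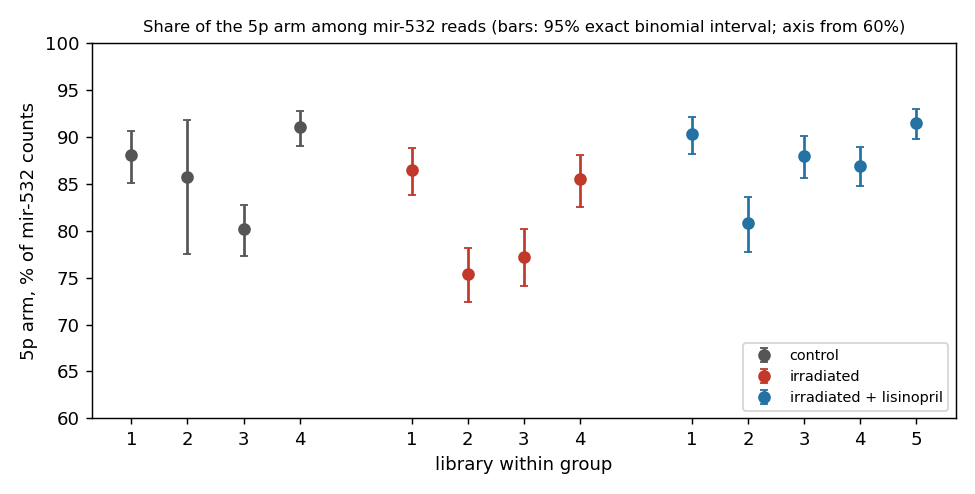
Percent of mir-532 counts that belong to the 5p arm (y axis, starting at 60%) in each library of the 3 groups (x axis), with 95% exact binomial intervals, which cover counting error only. Irradiated libraries 2 and 3 are the lowest, at 75.4% and 77.2%, and the other 11 lie between 80.2% and 91.5%.

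The other hairpins counted on both arms, mir-501 and mir-362, had more 3p than 5p counts. For mir-501 the counts over all libraries were 54 of 5p and 120 of 3p, which is 31.0% 5p, and for mir-362 they were 165 and 752, or 17.99% 5p. The 5p share of mir-362 had similar means in the 3 groups, at 17.6 ± 6.27% in control (n = 4), 18.1 ± 9.07% in irradiated (n = 4) and 18.4 ± 1.68% in lisinopril kidneys (n = 5). For mir-501 no library held more than 20 counts of both arms together, and the 5p share could not be resolved in single libraries.

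miR-501-3p rested on few reads. The control group had 14, 1, 14 and 10 counts in libraries 1 to 4, and the irradiated group had 12, 14, 11 and 3. The 5 lisinopril libraries had 5, 12, 8, 10 and 6 counts. In CPM these were 1.06 to 1.80 in control, 2.24, 1.74, 1.53 and 0.505 in irradiated libraries 1 to 4, and 0.695 to 1.25 in lisinopril kidneys. Irradiated library 4 was the lowest of all 13 and the other 3 irradiated libraries lay above every lisinopril library.

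The groups as a whole overlapped, at 1.51 ± 0.730 CPM in irradiated (n = 4) and 0.913 ± 0.214 CPM in lisinopril kidneys (n = 5), with 1.35 ± 0.325 CPM in controls (n = 4). Log2 fold changes were -0.70 (SE 0.337) for lisinopril against irradiated, -0.61 (SE 0.345) for lisinopril against control and 0.09 (SE 0.355) for irradiated against control. The 3 counts of irradiated library 4 allow 0.619 to 8.77 by an exact 95% Poisson interval, and the 11 counts of irradiated library 3 allow 5.49 to 19.7. In CPM the interval of library 4, 0.104 to 1.48, overlapped those of libraries 1 (1.16 to 3.92), 2 (0.950 to 2.91) and 3 (0.766 to 2.75). Overlap of intervals is no test of a difference, and the gap within the group was not tested. Its hairpin partner miR-501-5p had 0 to 9 counts per library, 54 in all. It stood at 0 in control library 2, which allows up to 3.92 CPM there by the same kind of interval. miR-501-5p did not pass the filter on low counts and was not tested, and its groups overlapped in all 3 comparisons.

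miR-500-3p, which shares the seed of miR-501-3p and had a mean of 11.5 CPM against its 1.23 CPM, gave overlapping groups. Its values were 8.499, 10.6, 14.1 and 9.79 CPM in control, 11.2, 16.7, 12.0 and 12.0 CPM in irradiated and 8.504, 12.0, 10.7, 10.2 and 12.9 CPM in lisinopril libraries. Irradiated library 2 and control library 3 were the highest, as they also were within their groups for miR-532-3p. The log2 fold change was 0.27 (SE 0.206) for irradiated against control, -0.26 (SE 0.189) for lisinopril against irradiated and 0.01 (SE 0.195) for lisinopril against control.

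miR-188-5p, from the hairpin next to Mir532, was at 15.3, 14.9, 14.9 and 20.5 CPM in control, 25.2, 19.5, 20.4 and 14.3 CPM in irradiated and 19.95, 14.3, 14.1, 15.2 and 14.4 CPM in lisinopril libraries. Of the 4 irradiated kidneys 3 lay above 3 of the 4 controls and 4 of the 5 lisinopril kidneys, and irradiated library 4 lay below all controls. Log2 fold changes were 0.26 (SE 0.196), -0.35 (SE 0.181) and -0.09 (SE 0.186) for the 3 comparisons in the same order.

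The arms of mir-362 did not follow miR-532-3p. miR-362-3p was at 10.2, 6.38, 4.44 and 8.02 CPM in control, 8.23, 4.34, 6.28 and 10.6 CPM in irradiated and 7.52, 7.84, 8.27, 7.47 and 10.2 CPM in lisinopril libraries, with log2 fold changes of -0.01 (SE 0.287), 0.18 (SE 0.263) and 0.17 (SE 0.270). miR-362-5p had 1 to 20 counts per library, and was at 1.45 ± 0.281 CPM in control (n = 4), 1.47 ± 0.381 CPM in irradiated (n = 4) and 1.85 ± 0.119 CPM in lisinopril kidneys (n = 5). The range of the lisinopril group, 1.67 to 1.97 CPM, overlapped that of both other groups.

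In the fit over all 419 tested miRNAs (quasi-likelihood test of edgeR, Benjamini-Hochberg adjusted, threshold 0.05), 0 of the 7 tested members passed between irradiated and control kidneys, where 1.67% of all tested miRNAs passed. The count was 0 of 7 between lisinopril and irradiated kidneys, where 0% passed, and 0 of 7 between lisinopril and control kidneys, where 6.21% passed. At an unadjusted p under 0.05, miR-532-3p was the single member below it in the comparison of irradiated with control kidneys (22.2% of all tested miRNAs) and in that of lisinopril with irradiated kidneys (15%), and no member was below it for lisinopril against control (22.7%). Groups without overlap were seen for miR-532-3p alone among the 8 members, in lisinopril against irradiated kidneys, where 4.3% of all tested miRNAs had none. In irradiated against control the share of all tested miRNAs without overlap was 7.16%, and in lisinopril against control 13.4%, with 0 members in either. DESeq2 gave an adjusted p to 5, 1 and 7 of the members in the 3 comparisons and called 1 (miR-532-3p), 0 and 0 of them, where it called 11.3%, 6.63% and 6.97% of all miRNAs with an adjusted p. With limma-voom the members called were 0, 0 and 0, where 1.67%, 0.477% and 4.77% of all tested miRNAs passed. Because these values helped to choose the members, nothing is read from the counts.

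The 7 tested members had a median log2 fold change of 0.23 for irradiated against control, with 5 above 0, while over all 419 miRNAs the median was 0.02 and 51.8% were above 0. For lisinopril against irradiated kidneys the median was -0.26, with 3 above 0, against -0.02 and 46.5%. For lisinopril against control it was 0.06, with 5 above 0, against 0.05 and 57%. Scaling by library totals alone moved the median of all miRNAs by 0.24 and -0.19 in the first and the second comparison. Relative to the median of all miRNAs, miR-532-3p was then at 0.77 and -0.73, and the median of the members at 0.23 and -0.25. With that scaling all 7 members had a log2 fold change above 0 for irradiated against control, so that miR-362-3p and miR-362-5p changed sign, and miR-532-5p went to -0.15 for lisinopril against irradiated kidneys.

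Without irradiated library 4, miR-532-3p and miR-501-3p passed the threshold for lisinopril against irradiated kidneys, 2 of 7 members, where 11% of all tested miRNAs passed. The cluster was chosen by the counts of these 2 miRNAs, also without this library, so nothing is read from their passing. Their log2 fold changes were then -0.89 (SE 0.223) and -0.99 (SE 0.278), ratios of 0.539 and 0.505. The 3 remaining irradiated kidneys lay above all 5 lisinopril kidneys for both. Among all tested miRNAs, with TMM factors recomputed without library 4, 19.8% had no overlap in this comparison. miR-188-5p (-0.50, SE 0.172) did not pass; in the CPM given above its irradiated library 2 lay just below lisinopril library 1, and after the rescaling just above it.

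Against control kidneys, 1 of 7 members passed without irradiated library 4, where 14% of all tested miRNAs passed. This was miR-532-3p, at 23.6 ± 4.003 CPM in 3 irradiated and 12.8 ± 4.05 CPM in 4 control kidneys (log2 fold change 0.95, SE 0.244). It had no overlap with controls in these 3 kidneys, as did 23.5% of all tested miRNAs. It also passed without control library 3 (1.00, SE 0.247), which held the highest control value, where 2.66% of all tested miRNAs passed. Without the shallow control library 2 its log2 fold change was 0.89 (SE 0.246) and it did not pass, where 1.64% did. As the values of miR-532-3p helped to choose the cluster, nothing is read from these calls. For lisinopril against control 0 of 7 passed without irradiated library 4, where 7.69% of all tested miRNAs did, and 0 members were without overlap, where 13.1% were.

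**Figure D3:**
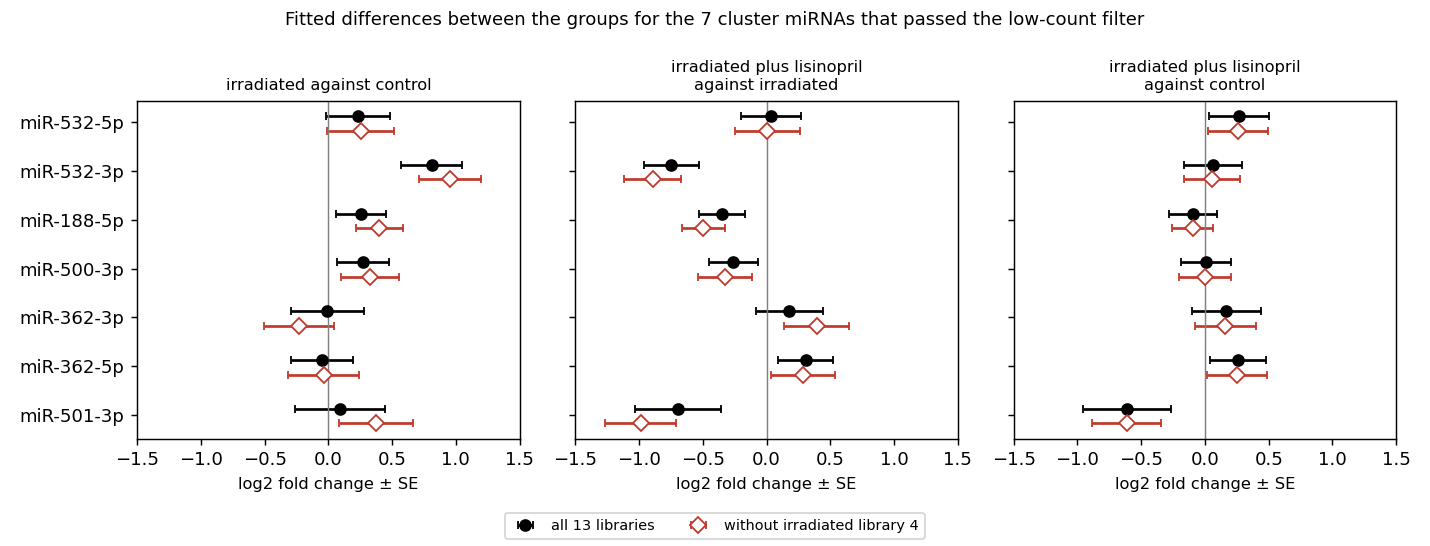
Log2 fold change ± SE (x axis) of the 7 tested cluster miRNAs (rows) in the 3 comparisons (panels), fitted to all 13 libraries (black) or without irradiated library 4 (open red diamonds). miR-532-3p is at 0.81 and -0.75 in the first and second panel and near 0 in the third, and miR-501-3p moves from -0.70 to -0.99 in the second panel when that library is left out.

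Levels of the members showed no common direction across rats. Over the 21 pairs of the 7 tested members, Pearson's r of log2 CPM over the 13 libraries had a median of -0.06 and ran from -0.65 to 0.67, with 10 pairs above 0. Over all 87571 pairs of tested miRNAs the median was 0.00, and 90% of pairs lay between -0.65 and 0.66. All correlations here are descriptions over 13 libraries that share their scaling and fall into 3 groups, and they carry no p. The arms of mir-532 were nearly unrelated (r = 0.08, Spearman's rho = -0.01), as were those of mir-362 (r = 0.04, rho = 0.09).

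The highest value was between miR-532-3p and miR-500-3p (r = 0.67, rho = 0.65) and the lowest between miR-532-3p and miR-362-3p (r = -0.65, rho = -0.63). With group means subtracted the last pair reached r = -0.88 (rho = -0.82), where the same share of all pairs as above lay between -0.66 and 0.67. This pair was picked as the lowest of 21, so its value is partly due to the choice. Within the control group and within the irradiated group, the order of the 4 kidneys by miR-532-3p was exactly the reverse of their order by miR-362-3p: irradiated libraries 2, 3, 1 and 4 had 27.4, 24.0, 19.4 and 16.0 CPM of the former and 4.34, 6.28, 8.23 and 10.6 CPM of the latter. In control library 2 the levels of miR-532-3p and miR-362-3p rest on 15 and 6 counts. Their exact 95% Poisson intervals, 8.93 to 26.3 and 2.34 to 13.9 CPM, include the 16.5 and 4.44 CPM of control library 3. The full order of the control kidneys was therefore not resolved at this depth. Irradiated kidneys next to each other in the order also had overlapping intervals. The ends of each order did not overlap. For miR-532-3p the intervals were 6.57 to 10.8 and 14.1 to 19.2 CPM in control libraries 1 and 3, and 23.9 to 31.3 and 12.9 to 19.6 in irradiated libraries 2 and 4. For miR-362-3p they were 8.05 to 12.7 and 3.25 to 5.92, and 3.02 to 6.04 and 8.15 to 13.6 CPM. The lisinopril kidneys spanned a narrower range of both miRNAs. These sequences are the members with the highest and the lowest GC content, at 63.6% and 40.9%, and whether composition has a part in the relation was not tested.

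**Figure D4:**
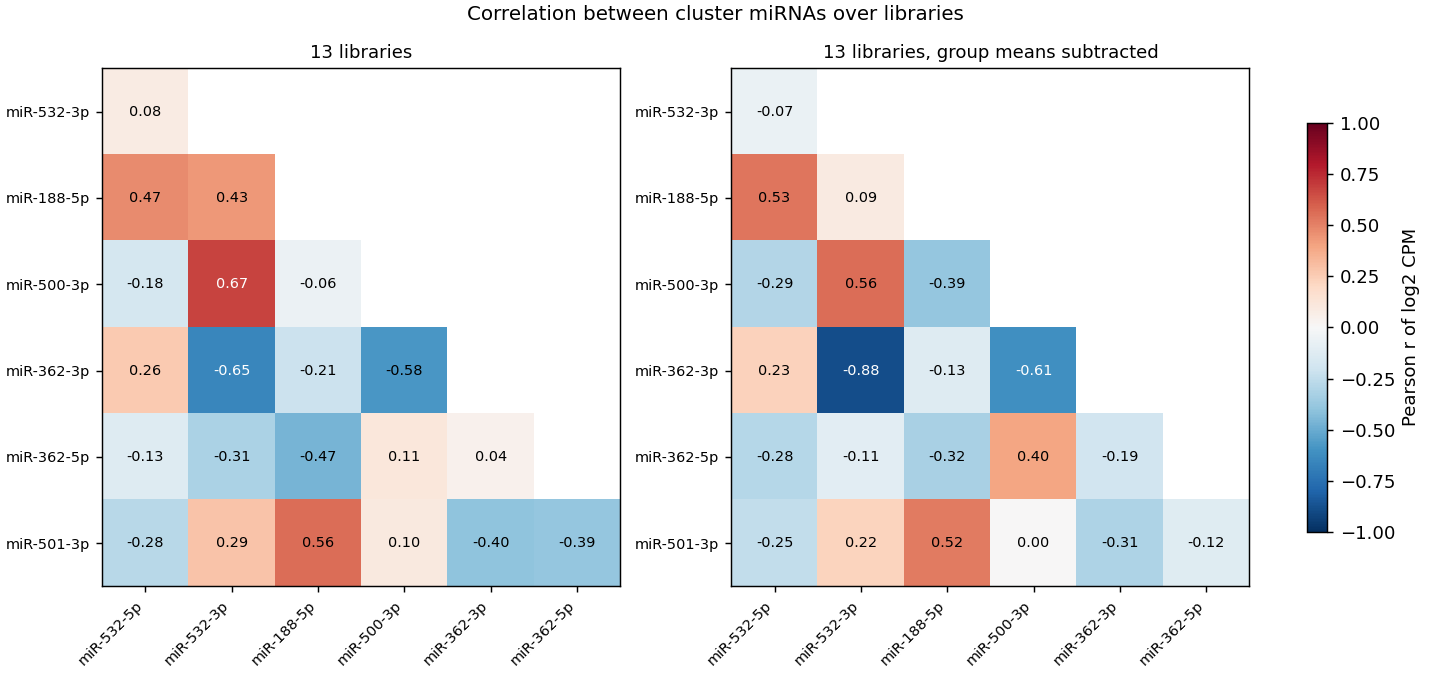
Pearson's r of log2 CPM between the 7 tested cluster miRNAs over 13 libraries (left) and after subtracting group means (right), with red for positive and blue for negative values. miR-532-3p and miR-362-3p have the lowest value in both panels (-0.65 and -0.88), and the arms of mir-532 are at 0.08 and -0.07.

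The miRNAs most like the cluster were sought by the correlation of log2 CPM with the mean of the standardised members over 13 libraries. The tested members were left out of this ranking. It picks the highest r among all other tested miRNAs, so high values are partly due to the choice. The 5 nearest were miR-324-3p (r = 0.85), miR-423-3p (0.84), miR-140-3p (0.83), miR-92a-3p (0.83) and let-7i-3p (0.82). All are 3p arms, as are several of the averaged members, and the share of 3p arms among all tested miRNAs was not counted. The 4 with a RefSeq sequence had a GC content of 57.1% to 72.7%, against a median of 46.7% over 376 tested miRNAs. Whether arm or composition has a part in the likeness was not tested. Without irradiated library 4, and likewise with group means subtracted, 3 of the 5 were again among the nearest 5. miR-324-3p was at 30.7 ± 6.34 CPM in control (n = 4), 52.5 ± 17.7 CPM in irradiated (n = 4) and 38.5 ± 5.01 CPM in lisinopril kidneys (n = 5), and miR-423-3p at 409 ± 116, 689 ± 283 and 432 ± 139 CPM.

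Other miRNAs of the X chromosome were taken from a list of 41 entries that RefSeq places there alone. Of these 36 were tested, and with edgeR 0 passed in either direction in any of the 3 comparisons. At an unadjusted p under 0.05 there were 8 for irradiated against control, 6 for lisinopril against irradiated and 8 for lisinopril against control, beside 22.2%, 15% and 22.7% of all tested miRNAs. DESeq2 called 3 of 28, 2 of 13 and 1 of 36 with an adjusted p, beside 11.3%, 6.63% and 6.97% of all, and limma-voom called 0 of 36 in each. Their median log2 fold changes were 0.00 for irradiated against control (18 of 36 above 0), 0.03 for lisinopril against irradiated (19 of 36) and 0.10 for lisinopril against control (24 of 36). For the same comparisons the members of the cluster had medians of 0.23, -0.26 and 0.06, and the difference between the lists was not tested.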

How the data were processed

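A TruSeq kit was used to build small RNA libraries from total RNA, per the labels' protocols. The submitters' processing notes name Trim Galore 0.2.5, Bowtie 1.1.1 and genome build rn4. The counting step is not described in the sources used here. The authors deposited whole-number read counts per feature and library, not normalized as far as the values show. Groups follow the group name in the labels, and replicates are separate rats.

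Analysis of the 460 rat mature miRNAs used edgeR 4.0.16 under R 4.3.3: filterByExpr by group (419 kept), TMM scaling (factors 0.787 to 1.19), and a quasi-likelihood fit of all 13 libraries with a mean per group. Benjamini-Hochberg adjustment ran over all tested miRNAs, with a threshold of 0.05. Log2 CPM adds a prior count of 2. Alternatives used limma 3.58.1 and DESeq2 1.42.0, other scalings and filters, fewer groups, other-species miRNAs, and each library left out. The fit was tested on simulated data.

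The members and lists were chosen with earlier results of these data known. The text names every member, the 5 miRNAs most correlated with them, a list of X-linked miRNAs, and markers of kidney, leukocytes, erythroid cells, muscle, liver and neural or endocrine cells. Of the markers, miR-122 (the single liver marker), miR-124, miR-206 and miR-208 had no rat mature entry under these names, with or without an arm suffix. miR-9a and miR-7a together were at 214 to 508 CPM. Sequences, and the chromosome, strand and order of the hairpins, are from RefSeq (GRCr8); no coordinates are printed.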

Additional observations from a re-analysis of the deposited data

Results flagged for a closer look

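In 30 sets of values (8 members, their sum and the 5p share of mir-532, in each of 3 groups), 3 single kidneys lay far from the rest of their group by Dixon's gap test at the 95% level, and chance flags about 1 in 20 sets. miR-188-5p was at 20.5 CPM in control library 4, with the next control at 15.3 CPM, and at 19.95 CPM in lisinopril library 1, with the next lisinopril kidney at 15.2 CPM. miR-500-3p was at 16.7 CPM in irradiated library 2, with the next irradiated kidney at 12.0 CPM. Irradiated library 4 was flagged for no member.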

How the results depend on the processing

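The 21 log2 fold changes of the members (7 in each of 3 comparisons) were recomputed under up to 21 alternatives, giving 431 values. All 431 moved by less than the pooled SD of single rats in the groups compared. Leaving out 1 rat shifts a group mean by only a part of this SD. The alternatives that leave out a library could therefore hardly exceed that mark, and nothing is read from it. Of the 431 values 398 kept their sign, and 12 of the 21 fold changes kept it under every alternative run. Among these were miR-532-3p for irradiated against control (0.64 to 1.03) and for lisinopril against irradiated kidneys (-0.94 to -0.62). A mean of at least 10 CPM left out miR-501-3p, miR-362-3p and miR-362-5p, and the fit of only the lisinopril and irradiated libraries left out miR-501-3p. DESeq2 called miR-532-3p for irradiated against control (log2 fold change 0.83, SE 0.249), where it called 11.3% of all miRNAs with an adjusted p. The number of all miRNAs past the threshold moved more. For irradiated against control it was 7, but 2 with library totals alone, 37 with DESeq2, 1 with only the groups compared, 1 with other-species miRNAs added, and 1 to 60 over single libraries left out, with 60 without irradiated library 4 and 1 without control library 4. For lisinopril against irradiated it was 0 (63 at an unadjusted p under 0.05), but 2 each with RLE size factors, library totals alone, a mean of at least 10 CPM and limma-voom, 11 with DESeq2, and 0 to 47 over single libraries left out, with 47 without irradiated library 4. For lisinopril against control it was 26, but 17 with a mean of at least 10 CPM, 40 with only the groups compared, 47 with other-species miRNAs added, and 13 to 43 over single libraries left out, with 43 without irradiated library 2. The cause of these moves was not tested. The median correlation between members stayed between -0.12 and -0.04, also without control library 2, an alternative added after the data were seen. Depth limits miR-501-3p, miR-501-5p and miR-362-5p most, as 10 of the 104 values of the members were at 3 counts or fewer. No paired analysis was possible because replicate numbers follow the order of the samples and pair no rats.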
